A study of Salmo salar with 6 samples.

Results

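Homeobox and lineage transcription factors were followed on 6 one-color Agilent arrays of Atlantic salmon (Salmo salar) head kidney (HK) RNA. Members were chosen by gene symbol alone: hox, pax, lhx, nkx, meis, pbx, pou, dlx, msx, irx, otx and related homeobox genes, the sox, fox, tbx and dmrt families, and the gata, lmo, myb, gfi1, ikzf, runx, tal1, ebf, cebp, ets, elf, fli1, erg, spi1, klf, egr, tcf, mef2 and id symbols, with tcf7 left out. Of 42386 probes, 189 carried such a symbol, for 186 of the 8072 genes that could be named. The symbol pattern also caught products that do not themselves bind DNA as transcription factors. These were pbxip1a and pbxip1b, which code for a PBX-interacting protein, pou2af1, a coactivator of POU factors in B cells, the LIM-only adaptors lmo2, lmo4a and lmo4b, the inhibitors id2 and id3, and the coregulator tcf20. Only 8155 of all probes could be tied to a gene symbol, so further members may sit among the unnamed probes.

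The AQUOLIVE® fish were juveniles that received a diet with 0.15% AQUOLIVE®, a preparation of olive fruit phytochemicals, and the control fish were juveniles on the same feed without it. Feeding lasted 133 days in both groups, and all fish had been treated with hydrogen peroxide and formaldehyde after transport. Each diet was represented by 3 pools, each made of the RNA of 6 fish, so the spread reported here is that between pools and the variation between single fish was lost. The array gives 1 fluorescence signal per probe, which is relative, so levels of different probes are not compared.

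The HK is the main blood-forming organ of bony fish and also holds interrenal (steroid-producing) and chromaffin (catecholamine-producing) cells. Hox genes lie in clusters and code for homeodomain proteins that give cells a position along the body axis, the low-numbered paralog groups being used toward the head and the high-numbered ones toward the tail; several are also used by blood progenitors. GATA, C/EBP, ETS, LMO2, Ikaros, E-protein and Krüppel-like factors are the switches by which blood progenitors of vertebrates become red cells, granulocytes, macrophages, thrombocytes or lymphocytes. In a bulk extract, fewer cells of a type and less RNA per cell cannot be told apart.

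Many of these genes were near the detection limit. A spot counts as well above background when the scanner software sets that flag, and a probe was kept for testing when it was so flagged on at least 3 of the 6 arrays, whatever the diet. The filter kept 79 of the 189 member probes (41.8%), 1 for each of 79 genes, and 60.9% of all probes. Above background on all 6 arrays were 40 member probes, while 66 were above it on none, 33 on 1 and 11 on 2. Among the 110 that were not kept, 29 were detected on AQUOLIVE® arrays only, 9 on control arrays only and 6 on both. Most of the 29 were above background in AQUOLIVE® pool 2 alone, and the same split over all probes was not counted. The arrays differed in this respect: 76, 110 and 59 members were above background in AQUOLIVE® pools 1, 2 and 3, and 74, 73 and 46 in control pools 1, 2 and 3, which follows the order of all probes (61, 76 and 54.1%, and 60.9, 59.9 and 42.5%). Control pool 3 had the lowest median signal of the 6 arrays (16.67, against 51.99 to 107.8 on the others), and its values for dim probes are therefore the least certain. Control arrays and AQUOLIVE® arrays belong to different runs of slide numbers and the control arrays were scanned first, so that diet and slide run cannot be told apart. Detection shares between the diets are given below as counts, with no test.

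No member passed the adjusted threshold. With limma on loess-normalized log2 signals and Benjamini-Hochberg adjustment over all 25826 kept probes (threshold 0.05, two-sided), 0 of 79 members were called, against 4 of all probes (0.0155%). The smallest adjusted p of a member was 0.0737, for dmrt3a. At an unadjusted limma p under 0.05 there were 16 members (20.3%), a share near the 18.1% of all kept probes, of which 7 were higher with AQUOLIVE® (9.56% of all probes were) and 9 lower (8.58% of all probes). This split turned to 9 higher and 7 lower when the 75th percentile of each array was used for scaling, to 5 and 1 with normexp background correction, and to 7 and 4 in the deposited log2 values after centring on array medians. The methods' t-test was read at an unadjusted p under 0.05 together with an absolute log2 fold change (log2 FC, AQUOLIVE® minus control) of at least 0.8, a minimum that the methods do not state. This threshold was passed by 5 members, namely tbx21, hoxa5aa, sox11a and klf15 on the higher side and dmrt3a on the lower. These were 6.33% of the members against 9.05% of all kept probes; 5.22% of all kept probes passed it on the higher side and 3.83% on the lower, and 0 of all kept probes passed once the p-values of this t-test were adjusted. Of the 5, tbx21 was above background on no control array, so its test sets detected against undetected spots. Without the minimum size, lmo2 and hoxb7ab (higher) and fli1, cebpa, pou2af1 and hoxb2ab (lower) also had an unadjusted p under 0.05 in this t-test. The share of all kept probes at that reading was not counted.

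The median log2 FC was -0.18 over the 79 kept members and -0.02 over all kept probes, and with normexp correction it was -0.045 and -0.01. As a description with no test, 33 members were higher (41.8%, against 48.6% of all kept probes) and 46 lower. The diets did not overlap in 25 members (31.6%, against 29.7% of kept probes measured on every array). In 17 of these every AQUOLIVE® pool lay below every control pool (21.5%, against 15% of such probes), and in 8 every AQUOLIVE® pool lay above every control pool (10.1%, against 14.7%). The count of 17 was 11 with 75th percentile scaling, 10 with normexp correction and 4 in the centred deposited values, where the shares over all probes were 11.4, 9.14 and 6.5%. Of the 24 members at or above the median signal of all kept probes, 17 were lower and 7 higher (median log2 FC -0.18), and over the alternatives tried 14 to 20 of them were lower. Of the 55 dimmer members 29 were lower and 26 higher, also with a median of -0.18. The dimmer members varied more between pools, with a median SD of 0.38 (AQUOLIVE®) and 0.57 (control), against 0.15 and 0.23 for the brighter ones. An unadjusted limma p under 0.05 was found in 25.5% of the dimmer and 8.33% of the brighter members, where all dim and all bright probes had 20.8% and 15.5%. These counts describe members that passed the filter and are not tests of the families. The sizes depended on the background correction: with normexp 62 of the 79 log2 FC were smaller in size, the median size being 0.26 in place of 0.47, and 66 kept their sign.

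**Figure D1:**
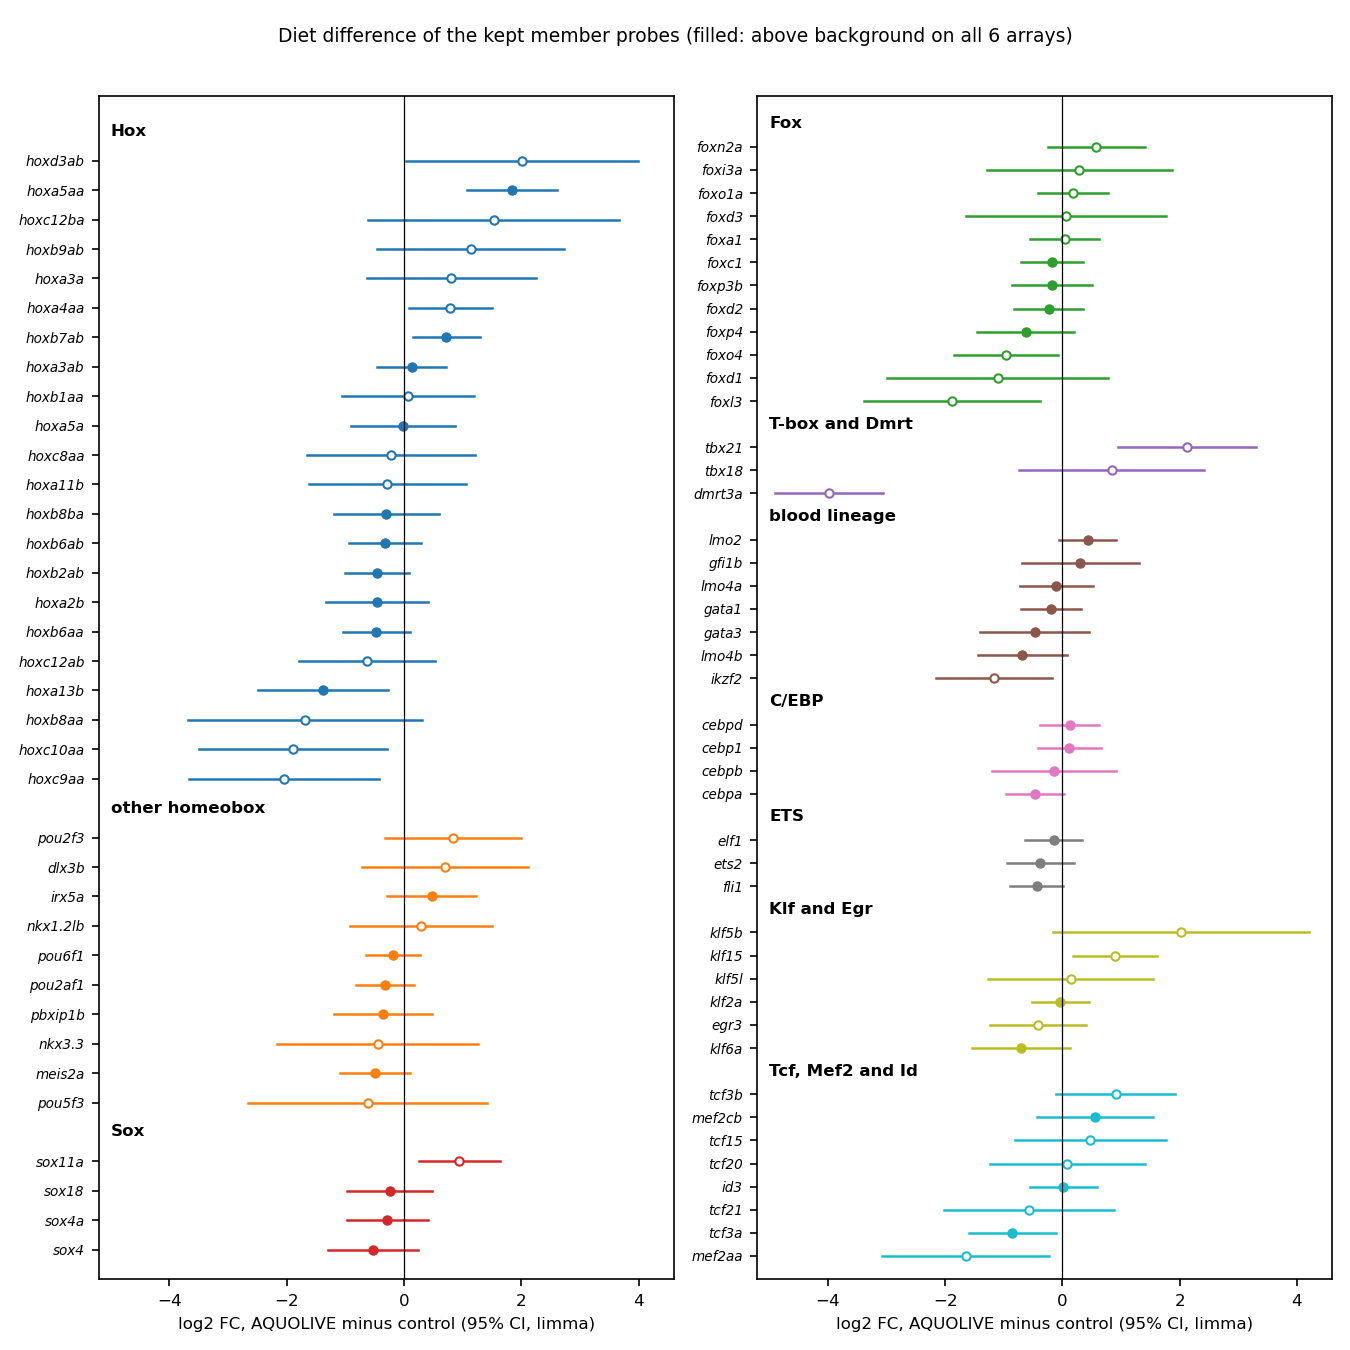
Log2 FC (AQUOLIVE® minus control, x axis) of the 79 kept member probes with the 95% confidence interval from limma, grouped by family; filled points were above background on all 6 arrays. Most points lie within 1 log2 unit of 0, and dmrt3a at -3.98, tbx21 at 2.13, hoxc9aa at -2.05, klf5b at 2.03 and hoxd3ab at 2.01 lie farthest out, all of them with open points, whose fitted size rests in part on undetected spots.

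Hox genes were the largest family, with 68 probes, and 22 were kept. Detection is given by paralog group, with no test. Of the probes for groups 1 to 3, 6 of 13 (46.2%) were kept, and of those for groups 4 to 8, 9 of 21 (42.9%), whereas for groups 9 to 13 it was 7 of 34 (20.6%), and 17 of these 34 were above background on no array. Group 1 was detected as seldom as the last groups, with 1 of 5 probes kept and 3 above background on no array. By cluster letter, 8 of 19 HoxA, 8 of 13 HoxB, 5 of 24 HoxC and 1 of 12 HoxD probes were kept, and the 10 Hox probes above background on every array were 5 of HoxA and 5 of HoxB. Of the 5 kept HoxC probes only hoxc8aa was of a group below 9, the others being hoxc9aa, hoxc10aa, hoxc12ab and hoxc12ba. The better detection of low-numbered groups was thus not seen within HoxC, and cluster letter and paralog group were not separated here. For group 4, 50% of the spots were above background on AQUOLIVE® arrays and 0% on control arrays (12 spots per diet), for group 3 it was 66.7% and 40% (15 spots per diet), and for group 5 it was 50% on either (12 spots per diet). Of the group 4 probes, hoxa4aa was above background on all 3 AQUOLIVE® arrays. The others were so on 1 array each, hoxc4aa and hoxc4ab in AQUOLIVE® pool 2 and hoxd4a in AQUOLIVE® pool 1. In AQUOLIVE® pool 2 the dimmest kept probe above background stood at a normalized log2 signal of 2.78, against 3.87 to 4.74 on the other arrays. The AQUOLIVE® share was the higher one in each group other than 5 and 13. The arrays of a diet differed, with 24, 38 and 17 Hox probes above background in AQUOLIVE® pools 1, 2 and 3, and 20, 19 and 12 in control pools 1, 2 and 3. AQUOLIVE® pool 2 thus stood highest, and AQUOLIVE® pool 3 lay below control pools 1 and 2. The order of all probes went the same way (given above), and the part of array quality in this difference was not tested.

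**Figure D2:**
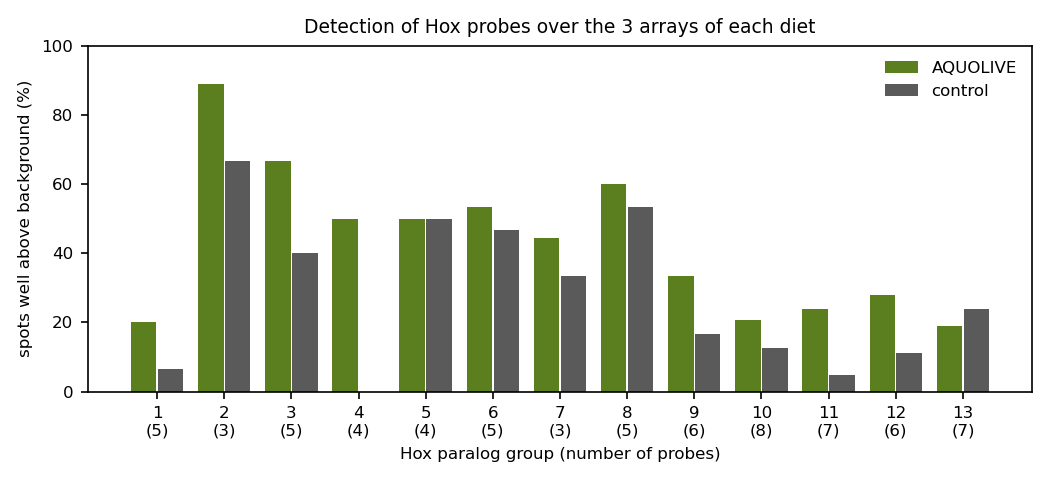
Share of Hox probe spots well above background (y axis, percent) on the 3 AQUOLIVE® arrays (green) and the 3 control arrays (grey), by paralog group (x axis, with the number of probes). On AQUOLIVE® arrays groups 2 to 8 reached 44.4 to 88.9%, group 1 reached 20% and groups 9 to 13 reached 19 to 33.3%. Group 4 was detected on AQUOLIVE® arrays alone, and on all 3 of them only for hoxa4aa.

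The Hox gene that stood apart between the diets was hoxa5aa, a copy of Hoxa5, which in mammals patterns the neck and lung and is used by early blood progenitors. Its normalized log2 signal was 7.47, 7.93 and 7.68 in AQUOLIVE® pools 1, 2 and 3, against 6.45, 5.61 and 5.50 in control pools 1, 2 and 3. Each AQUOLIVE® pool lay at least 1 log2 unit above the highest control pool, and the probe was above background on all 6 arrays. The log2 FC was 1.84 (95% confidence interval 1.07 to 2.61; limma unadjusted p = 0.000987, adjusted p = 0.118), so it did not pass the adjusted threshold. The unadjusted p stayed under 0.05 in each of 15 alternatives, with log2 FC between 0.83 (normexp) and 2.17. The exact permutation p over the arrays was 0.1, the smallest that 3 pools against 3 can give.

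Within the same cluster, the neighbours of hoxa5aa differed less. For hoxa4aa the signal was above background on all 3 AQUOLIVE® arrays and no control array, at 4.99, 4.90 and 5.31 in the AQUOLIVE® pools against 3.77, 4.63 and 4.44 in the control pools. In the main normalization its mean signal was 1.69-fold higher with AQUOLIVE® once a floor was set (limma adjusted p = 0.249 for the fit without a floor). For each control array this fold takes the probe's measured value or, if that is lower, the dimmest signal the array held well above background. The same was done below for other probes above background on no control array. Such a fold is no lower bound, since undetected spots can lie above the floor. In control pool 3 the floor was 4.355, and the undetected spot of dmrt3a stood at 7.32. These folds do not carry over to other background corrections, and with normexp the log2 FC of hoxa4aa was 0.26. The next neighbour hoxa3ab, above background on all 6 arrays, had a log2 FC of 0.13 (95% confidence interval -0.46 to 0.72).

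Among the HoxB genes, hoxb7ab was higher, with 8.52, 8.39 and 8.19 in the AQUOLIVE® pools and 7.90, 7.35 and 7.70 in the control pools. The groups did not overlap and the probe was above background on all arrays (log2 FC 0.72, 95% confidence interval 0.15 to 1.29, limma adjusted p = 0.212). Its neighbours went both ways. The probe of hoxb9ab was above background on the 3 AQUOLIVE® arrays and on no control array. Its values were 5.45, 4.69 and 5.37 in the AQUOLIVE® pools against 2.66, 4.17 and 5.27 in the control pools, so the diets overlapped. In the main normalization it was 1.57-fold higher over the means with the floor (limma adjusted p = 0.382 without it), and with normexp the log2 FC was 0.39. The neighbours hoxb6ab and hoxb2ab had log2 FC of -0.33 and -0.47. In another HoxB cluster hoxb6aa stood at -0.47, hoxb8aa at -1.69 and hoxb1aa at 0.07, none with an unadjusted limma p under 0.05. For hoxb2ab and hoxb6aa, both above background on all arrays, every AQUOLIVE® pool lay below every control pool.

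The Hox members with a lower mean in the AQUOLIVE® pools and an unadjusted p under 0.05 were hoxc9aa, hoxc10aa and hoxa13b. The values of hoxc9aa were 2.67, 3.87 and 3.79 in the AQUOLIVE® pools against 4.67, 6.90 and 4.90 in the control pools. It was above background on 1 AQUOLIVE® and 2 control arrays, and the fitted log2 FC of -2.05 (limma adjusted p = 0.21) shrank to -1.26 when undetected spots were set no lower than the lowest detected signal of their array. Its neighbour hoxc10aa had 4.63, 3.28 and 3.66 in the AQUOLIVE® pools and 4.45, 6.80 and 6.01 in the control pools, with overlap between the diets (log2 FC -1.90, limma adjusted p = 0.229, and -1.54 with that floor). A further probe of hoxc10aa was above background nowhere, and the third neighbour, hoxc8aa, had a log2 FC of -0.22. The better measured of the 3 was hoxa13b, above background on all 6 arrays, with 5.48, 6.13 and 5.95 in the AQUOLIVE® pools against 6.77, 8.21 and 6.73 in the control pools (log2 FC -1.38, 95% confidence interval -2.49 to -0.28, limma adjusted p = 0.212). All 3 AQUOLIVE® pools of hoxa13b lay below all 3 control pools. With normexp the log2 FC of hoxc9aa, hoxc10aa and hoxa13b were -0.56, -0.49 and -0.59. Genes of the same high-numbered groups gave other values, with overlapping diets: -0.63 for hoxc12ab, -0.29 for hoxa11b and, on the higher side, hoxc12ba, described next.

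The only HoxD probe that was kept, hoxd3ab, had 7.52, 7.15 and 7.61 in the AQUOLIVE® pools and 3.58, 6.97 and 5.69 in the control pools. The AQUOLIVE® pools were close together and the control pools were spread over more than 3 log2 units, with 1 of 3 control arrays above background (log2 FC 2.01, 95% confidence interval 0.04 to 3.99, limma adjusted p = 0.27, and 0.94 with normexp). A further probe detected on AQUOLIVE® arrays alone was hoxc12ba, at 4.91, 5.86 and 5.53 against 2.67, 3.04 and 5.99 in the control pools. Its highest normalized value came from control pool 3, where the spot was not above background, so the diets overlapped. In the main normalization it was 1.59-fold higher over the means with the floor (limma adjusted p = 0.382 without it), and with normexp the log2 FC was 0.33. Over all kept probes, 1.03% were above background on all 3 AQUOLIVE® and no control array, and 4 of the 79 members were: tbx21, hoxa4aa, hoxb9ab and hoxc12ba. These 4 passed the filter through the AQUOLIVE® arrays only, so their count describes detection and is not a separate result. The reverse pattern was seen in 0 members and 0.00387% of all kept probes. Taking the 22 kept Hox genes together, 9 were higher and 13 lower. Their median log2 FC was -0.25 and ran from -0.38 to 0.02 over the alternatives tried, so the family as a whole had no stable direction.

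Homeobox genes outside the Hox clusters were the least detected family: 10 of 48 probes (20.8%) were kept. All kept members had log2 FC between -0.62 and 0.84 and none had an unadjusted p under 0.05. Among those above background on every array were meis2a, coding for a TALE homeodomain partner of Hox proteins, with a log2 FC of -0.50 (95% confidence interval -1.09 to 0.10), and irx5a, an Iroquois gene, with 0.47 (-0.29 to 1.23). In pou2af1 the diets did not overlap, at 11.11, 11.08 and 11.08 in the AQUOLIVE® pools against 11.26, 11.36 and 11.63 in the control pools, and the difference was small (log2 FC -0.33, limma adjusted p = 0.409). The same held for the POU gene pou6f1, with 7.19, 7.31 and 7.39 in the AQUOLIVE® pools and 7.53, 7.41 and 7.53 in the control pools (log2 FC -0.19, limma adjusted p = 0.588). Above background on no array were, among others, otx2b, pax7a, pax9, six2a, six3a and the 3 nkx6 genes, factors used in the brain, muscle, kidney or gut of vertebrate embryos.

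Of the SRY-related sox genes, 4 of 8 were kept. The member with an unadjusted p under 0.05 was sox11a, whose relatives act in neural and mesenchymal progenitors, with 5.37, 4.72 and 5.28 in the AQUOLIVE® pools against 4.53, 4.11 and 3.90 in the control pools. Its diets did not overlap, but 2 of the 3 control spots were not above background (log2 FC 0.94, 95% confidence interval 0.25 to 1.63, limma adjusted p = 0.191; 0.69 with the floor and 0.10 with normexp). The brighter probes of sox4, sox4a and sox18, genes of lymphoid progenitors and of endothelium in mammals, had log2 FC of -0.53, -0.28 and -0.25 and adjusted p between 0.395 and 0.661 in limma. Of these, sox4 did not overlap between the diets, but only just. Its values were 11.45, 11.21 and 11.12 in the AQUOLIVE® pools against 11.50, 11.45 and 12.41 in the control pools, where control pool 3 alone stood high.

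Forkhead genes were better detected, with 12 of 22 kept, 5 of them higher and 7 lower (median log2 FC -0.18). Both members with an unadjusted p under 0.05 were lower. For foxo4, a FOXO factor under the control of insulin signalling, the values were 3.72, 4.26 and 4.26 in the AQUOLIVE® pools against 4.50, 4.91 and 5.71 in the control pools (log2 FC -0.96, limma adjusted p = 0.254). It was above background on 1 AQUOLIVE® and 3 control arrays, and the log2 FC was -0.68 with the floor described above. The gene foxl3, a germ-cell factor in medaka, had 3.08, 4.50 and 3.77 in the AQUOLIVE® pools and 4.51, 5.87 and 6.63 in the control pools (log2 FC -1.89, limma adjusted p = 0.212, and -1.23 with the floor). In neither gene did the diets overlap, both signals lay near background, and with normexp the log2 FC were -0.37 for foxo4 and -0.29 for foxl3. The relatives measured above background on all arrays, foxp3b (a copy of the regulatory T-cell factor of mammals), foxc1 (a factor of the bone marrow niche in mammals), foxd2 and foxp4, had log2 FC of -0.18, -0.18, -0.24 and -0.63, with adjusted p from 0.361 to 0.741 in limma.

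T-box and Dmrt genes held the widest differences and were dim: 3 of 8 probes were kept and none was above background on all arrays. For tbx21, which codes for T-bet, the factor of interferon-producing T and natural killer cells in mammals, the signal was 4.66, 6.39 and 6.25 in the AQUOLIVE® pools against 3.70, 3.44 and 3.78 in the control pools. The spot was above background on every AQUOLIVE® array and on no control array. In this normalization the signal was 2.92-fold higher with AQUOLIVE® when the floor was set (limma adjusted p = 0.146 without it). Its fitted log2 FC of 2.13 was 0.48 with normexp, the lowest of the 11 alternatives in which it was kept, which went up to 2.79, so the size of the difference is not settled. For dmrt3a, a doublesex-related factor known from spinal neurons and gonads, it was 2.93, 2.97 and 2.57 in the AQUOLIVE® pools and 6.02, 7.07 and 7.32 in the control pools. The diets lay more than 3 log2 units apart (log2 FC -3.98, 95% confidence interval -4.90 to -3.06, limma adjusted p = 0.0737). The probe was above background on 1 AQUOLIVE® and 2 control arrays, its highest normalized value came from an undetected spot of control pool 3, and with the floor the log2 FC was -2.87. With 75th percentile scaling its adjusted p was 0.0472, the one alternative in which a member passed the adjusted threshold, and over all 11 alternatives in which it was kept the adjusted p ran from 0.0472 to 0.529 and the log2 FC from -4.27 to -0.78, the smallest with normexp. The mesenchymal factor tbx18 was above background on 1 of 3 control arrays, and its log2 FC was 0.14 with the floor and 0.04 with normexp.

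The GATA, LMO, GFI1 and Ikaros genes, grouped here as blood lineage, were well detected, 7 of 10 probes being kept. Those not kept included gata4 and gata5. No probe carried a runx, tal1, myb, ebf, spi1 or erg symbol, and none was named for gata2 or ikzf1. These factors could therefore not be followed. The red-cell and thrombocyte factor gata1 had 10.46, 10.34 and 10.65 in the AQUOLIVE® pools against 10.77, 10.76 and 10.47 in the control pools, with overlap (log2 FC -0.19, 95% confidence interval -0.70 to 0.33). The T-cell factor gata3 had 6.78, 7.07 and 7.15 in the AQUOLIVE® pools and 6.96, 7.18 and 8.28 in the control pools, where control pool 3 alone stood high (log2 FC -0.47, -1.40 to 0.46); a further gata3 probe was detected on 1 AQUOLIVE® array only. The adaptor lmo2, which joins GATA and TAL1 proteins in blood stem cells, was a little higher in every AQUOLIVE® pool, with 10.98, 10.79 and 11.04 against 10.36, 10.62 and 10.51 in the control pools (log2 FC 0.44, -0.05 to 0.92, limma adjusted p = 0.307).

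For gfi1b, a repressor of red-cell and thrombocyte precursors, the diets overlapped, with 8.93, 9.77 and 9.24 in the AQUOLIVE® pools and 9.62, 9.14 and 8.26 in the control pools (log2 FC 0.31, 95% confidence interval -0.70 to 1.31). Without control pool 3 its log2 FC was -0.06. Lower in every AQUOLIVE® pool was ikzf2, coding for Helios, an Ikaros-family factor of T cells, with 5.45, 5.22 and 4.11 against 5.70, 6.32 and 6.24 in the control pools (log2 FC -1.16, 95% confidence interval -2.15 to -0.17, limma adjusted p = 0.23). AQUOLIVE® pool 3, the lowest, was not above background for this probe, and the log2 FC was -0.75 without it and -0.33 with normexp. Of the 7 kept blood lineage genes 2 were higher and 5 lower. Their median was -0.19 and ran from -0.32 to -0.06 over the alternatives.

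All 4 C/EBP genes, leucine-zipper factors of granulocytes, macrophages and the acute phase, were above background on every array. The master factor of granulocytes, cebpa, was lower in every AQUOLIVE® pool, at 13.27, 13.31 and 13.40 against 13.63, 13.74 and 14.02 in the control pools (log2 FC -0.47, 95% confidence interval -0.97 to 0.03, limma adjusted p = 0.293). The inflammation-linked cebpb had 12.82, 13.95 and 12.35 in the AQUOLIVE® pools and 13.38, 13.24 and 12.92 in the control pools. AQUOLIVE® pool 2 was the highest and pool 3 the lowest of all, so no direction could be read (log2 FC -0.15, -1.20 to 0.91). Both cebpd, at 10.45, 10.38 and 10.25 in the AQUOLIVE® pools against 10.11, 10.15 and 10.45 in the control pools, and cebp1, a granulocyte factor in zebrafish, had log2 FC of 0.12 with overlapping diets.

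Among the ETS factors, the probe of fli1, a factor of thrombocytes and vessel walls, had the tightest values of the named genes, with 13.07, 13.09 and 13.04 in the AQUOLIVE® pools against 13.53, 13.42 and 13.56 in the control pools. The diets did not overlap (log2 FC -0.43, 95% confidence interval -0.88 to 0.02, limma adjusted p = 0.287). With normexp the log2 FC was -0.05 and with quantile normalization -0.26. The other kept members, ets2 and elf1, had log2 FC of -0.38 and -0.15. All 3 were lower, with a median of -0.38, in the main normalization; with normexp correction and in the centred deposited values 2 of 3 were. The epithelial factor elf3 was detected on 1 AQUOLIVE® array.

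Among the Krüppel-like and Egr genes, 6 of 7 were kept, 3 higher and 3 lower. The bright klf2a, a factor of quiescent T cells and endothelium, did not separate the diets, with 11.70, 11.66 and 11.94 in the AQUOLIVE® pools and 11.75, 11.91 and 11.73 in the control pools (log2 FC -0.03, 95% confidence interval -0.52 to 0.45). The metabolic factor klf15, induced by glucocorticoids in mammals, had 4.77, 5.28 and 5.75 in the AQUOLIVE® pools against 4.44, 4.43 and 4.21 in the control pools. Its diets did not overlap and 1 of 3 control spots was above background (log2 FC 0.90, 95% confidence interval 0.19 to 1.62, limma adjusted p = 0.211, and 0.26 with normexp). The early-response gene klf6a was lower in every AQUOLIVE® pool (log2 FC -0.71, -1.54 to 0.13). Its values were 11.06, 11.25 and 10.93 in the AQUOLIVE® pools against 11.38, 11.48 and 12.49 in the control pools, where control pool 3 alone stood high. The gene klf5b was above background on 1 of 3 control arrays, and its log2 FC of 2.03 (-0.16 to 4.21) was 1.41 with the floor and 0.41 with normexp. For egr1, an immediate early gene, the probe was above background on no array.

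The E-proteins and their inhibitors are the dimerizing helix-loop-helix factors that set lymphoid fate. The copy tcf3a, coding for an E2A-type protein, was lower in every AQUOLIVE® pool, with 11.67, 11.95 and 11.58 against 12.34, 12.26 and 13.16 in the control pools (log2 FC -0.85, 95% confidence interval -1.60 to -0.11, limma adjusted p = 0.235). Control pool 3 stood highest, and without it the log2 FC of tcf3a was -0.56. The other copy, tcf3b, had 6.38, 7.63 and 7.48 in the AQUOLIVE® pools against 5.97, 6.78 and 6.02 (the last not above background) in the control pools, a log2 FC in the opposite direction (0.91, -0.10 to 1.93, limma adjusted p = 0.305). Their antagonist id3 had 10.46, 9.99 and 10.34 in the AQUOLIVE® pools and 10.10, 10.50 and 10.13 in the control pools, and did not separate the diets (log2 FC 0.02, -0.56 to 0.59). The MADS-box gene mef2aa, a factor of muscle, had 3.97, 4.82 and 3.19 in the AQUOLIVE® pools against 5.48, 4.83 and 6.63 in the control pools. It was above background on 1 AQUOLIVE® and 3 control arrays (log2 FC -1.65, limma adjusted p = 0.235, -1.09 with the floor and -0.43 with normexp), whereas its relative mef2cb, a factor of muscle and B cells, was detected on all arrays with a log2 FC of 0.55 (95% confidence interval -0.44 to 1.55).

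**Figure D3:**
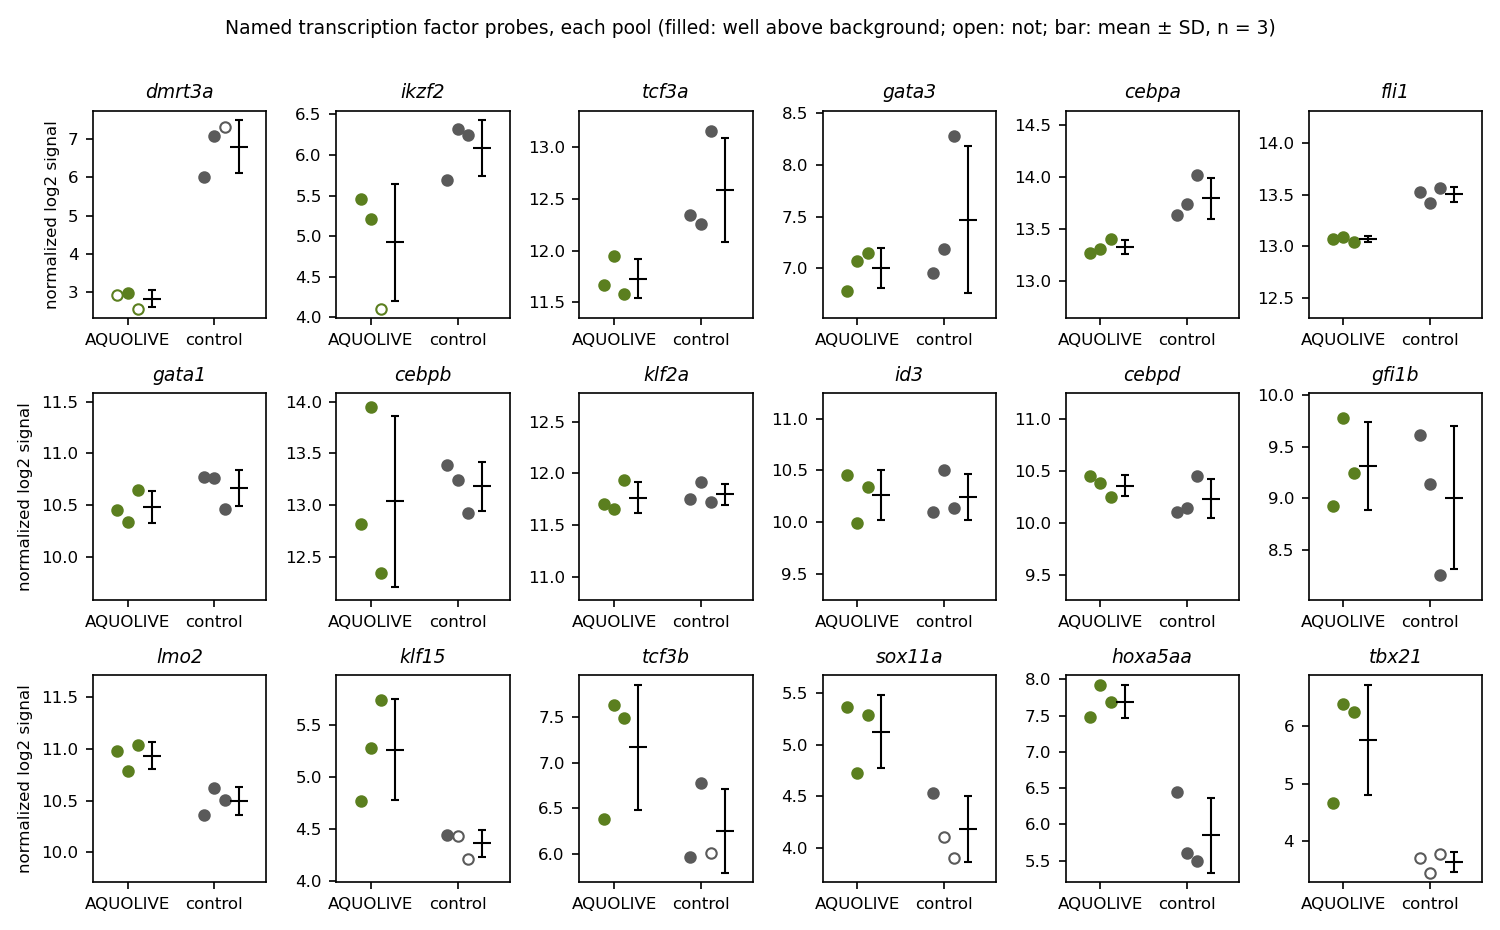
Normalized log2 signal (y axis) of 18 named members in each of the 3 AQUOLIVE® and 3 control pools, ordered from the lowest to the highest log2 FC; filled points were well above background, and bars give the mean and SD of 3 pools. In hoxa5aa all points are filled and the diets lie apart, whereas in tbx21 and dmrt3a 1 diet is mostly or wholly open points.

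The salmon genome is duplicated. With both members kept there were 9 pairs of closely named copies, formed by symbol without its copy suffix (a, b, aa, ab, ba, bb or l), which also joined klf5b with klf5l. The duplication behind each of these pairs was not traced. Of these, 6 had log2 FC of the same sign and 3 of opposite sign. The difference between the copies was formed within each pool, which removes only such error as the 2 probes share. For hoxa5a and hoxa5aa it was 1.86 log2 units lower in the AQUOLIVE® pools, since hoxa5a itself had a log2 FC of -0.02 and overlapped between the diets, at 6.57, 7.05 and 6.71 in the AQUOLIVE® pools against 7.42, 6.83 and 6.14 in the control pools. For tcf3a and tcf3b the difference was -1.77, and for lmo4a (log2 FC -0.10) and lmo4b (-0.68) it was 0.58. In these 3 pairs the diets did not overlap, and the exact two-sided permutation p was 0.1, the smallest possible, or 0.3 after adjustment over the 9 pairs. The sign held in all alternatives for each of them, between -1.99 and -0.87 for the hoxa5 copies, -2.34 and -1.26 for the tcf3 copies, and 0.42 and 0.76 for the lmo4 copies. Whether a probe also reads the other copy was not tested, as no probe sequence was used here.

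**Figure D4:**
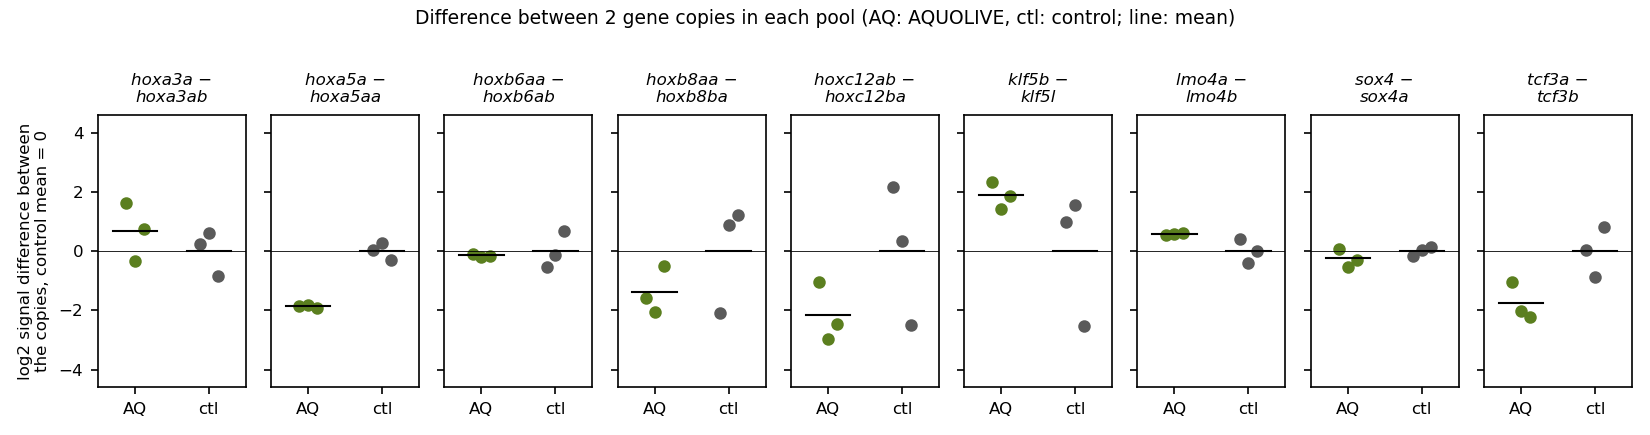
Difference in normalized log2 signal between the 2 copies of a gene in each pool (y axis, with the control mean of each pair set to 0) for AQUOLIVE® (AQ) and control (ctl) pools; lines are means of 3 pools. The diets lie apart for the hoxa5, tcf3 and lmo4 pairs and overlap in the other 6.

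A list of 39 further regulators of blood cell development outside the symbol pattern gave 20 probes, of which 18 were kept. The match by symbol and suffix also took in bcl6b, mafa and rbpjl, which are genes of their own and not copies of bcl6, maf and rbpj; without them 17 probes were kept, 5 higher and 12 lower. Of the 18, 5 were higher and 13 lower (median log2 FC -0.28), where 48.6% of all kept probes were higher. Of these 18, 0 passed the adjusted limma threshold, against 0.0155% of all kept probes. Among all kept probes 18.1% had an unadjusted limma p under 0.05, and of these 18 only 1 did. This was junb, an AP-1 subunit, with 10.47, 10.69 and 10.52 in the AQUOLIVE® pools against 11.53, 10.97 and 11.64 in the control pools (log2 FC -0.82, limma adjusted p = 0.196). No overlap with the AQUOLIVE® pools lower was seen in 6 of the 18 (5 of the 17), where 15% of all kept probes measured on every array showed it, among them mafba (log2 FC -0.42), a macrophage factor, bcl6 (-0.33), a germinal-centre repressor of mammals, and ldb1a (-0.59), the partner of LIM-only proteins; no overlap on the higher side was seen in 0, where 14.7% of all such probes showed it.

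Markers of HK cell types were summed as normalized signal on the linear scale over their kept probes. For macrophages (4 of 7 listed genes) the sum was 35360 to 39470 in the AQUOLIVE® pools and 42910 to 54640 in the control pools, and for thrombocytes (itga2b and gp9, 2 of 4 genes) it was 3293 to 3704 against 4205 to 5554 in the control pools. Both sums were lower in every AQUOLIVE® pool, as were cebpa and fli1, and so was the dim chromaffin sum (th and pnmt), at 44.84 to 76.56 against 76.75 to 122.3 in the control pools. Single markers went apart: log2 FC were -0.85 for cd68, -0.45 for mpeg1.1, -0.03 for c1qa and 1.13 for lgmn among macrophage markers, and -0.78 for itga2b and -0.12 for gp9. Among endothelial markers, whose sum overlapped between the diets, kdr had -0.97 with no overlap, pecam1a 0.09 and pecam1b -0.07. The part of these cells in the results for cebpa and fli1 was not tested. For T cells (cd3e and cd8a, 2 of 8 genes, 4 probes) the sum was 1148 to 1321 in the AQUOLIVE® pools and 305.4 to 1084 in the control pools. Only 1 of the 4 probes was above background on all 6 arrays. They did not move together, with log2 FC of -1.12 and 0.68 for cd3e and of 1.66 and 0.67 for cd8a. Among the T-cell factors named above, tbx21 was higher, but undetected on the control arrays. The means of ikzf2 (log2 FC -1.16), gata3 (-0.47), foxp3b (-0.18) and klf2a (-0.03) were lower. The part of T cells in these values was not tested either. The sums overlapped between the diets for neutrophils (6 of 9 genes, 105500 to 147000 against 113400 to 158100 in the control pools), red blood cells (5 of 8 genes, 40740 to 145500 against 93150 to 100200) and B cells (blnk and cd79b, 2 of 6 genes, 6236 to 7003 against 3918 to 8654). The neutrophil marker mpx and the red-cell marker hba lacked a value on some array. The sums of these cell types may therefore not rest on the same probes in each pool, and their overlap is uncertain. Listed markers were above background on each array for neutrophils (6 of 6 probes) and macrophages (4 of 4), while among interrenal markers star and fdx1b were detected on all arrays and cyp17a1 on none.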

How the data were processed

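The authors hybridized 1 Cy3-labeled RNA pool per array and deposited the scanner intensity of every spot (Feature Extraction 10.7.3.1 per the file headers), with outlier and background flags; the genome build behind the probes is not given in the sources used here. A deposited log2 table of the same spots holds background-subtracted signals on the log2 scale (equal within 1e-08), with no scaling between arrays.

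Processed signals were put on the log2 scale in R 4.3.3, without control spots and with outlier-marked spots as missing, for probes flagged well above background on 3 or more of the 6 arrays. The Lowess step named in the methods was run as a robust loess (span 0.3, 4 iterations) of each array against the average control array, before spots of a probe were averaged. Each adjusted p is from limma 3.58.1 (lmFit, eBayes, two-sided, Benjamini-Hochberg over all kept probes, threshold 0.05). The methods' t-test was read at an unadjusted p below 0.05 together with a log2 FC of 0.8 or more in size, a minimum the methods do not state. Single values were also tested by exact permutation, for which 6 arrays allow 10 splits. The loess and limma steps were run on simulated arrays with normal noise and a smooth array effect. These held no undetected spots and no slide run tied to diet, so that run cannot speak to those limits. The pools of a diet drew different fish from the same tanks, so p-values measure the spread between such pools and not between tanks.

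Probes were named by RefSeq accession in the Ssal_v3.1 gene table, used for names and for which genes neighbour each other: 40933 probes had an accession, 25641 were found and 8155 had a symbol. Hox neighbours lay within 500000 bases of each other. The members and gene lists were chosen with earlier results of these data known. The naming rule took members past the adjusted threshold or past this t-test threshold, listed blood lineage factors whatever their value, the 5 members with the highest mean signal, and dmrt3a; other members were named after their values were seen. Pool numbers did not pair the arrays (correlations of same-numbered deviations 0.21, -0.06 and 0.03). The alternatives were 75th percentile scaling, quantile normalization, loess against all 6 arrays, normexp (offset 50, on median spot and background signals), the deposited log2 values centred on array medians, stricter and no filters, outlier spots kept, 1 probe per gene, a pool-number block, and each array left out in turn.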

Additional observations from a re-analysis of the deposited data

How the results depend on the processing

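The count of all probes past the adjusted limma threshold, 4, was 34 with 75th percentile scaling, 2 with quantile normalization, 7 with normexp, 1 in the centred deposited values, 30 with detection asked on all 6 arrays, 1 with no filter, 0 by the methods' t-test after adjustment, and 0 to 61 with single arrays left out (61 without AQUOLIVE® pool 2). Members past it numbered 1 with 75th percentile scaling (dmrt3a, -3.91, adjusted p = 0.0472 from limma) and 0 otherwise, single arrays left out included (0 to 0). With the pool number as a replicate block the all-probe count was 0 and 14 members had an unadjusted p under 0.05; no member's adjusted call changed, and not every array correlated best with its own number.

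The 16 members at an unadjusted p under 0.05 were 6 with normexp, 8 with detection on all 6 arrays, 25 with no filter, and 6 to 14 with arrays left out (6 without AQUOLIVE® pool 3; 8 without AQUOLIVE® pool 1 or control pool 2; 9 without AQUOLIVE® pool 2). The 5 past the t-test threshold were 9 with quantile normalization, 2 with normexp, 2 with detection on all 6 arrays, 10 with no filter, and 3 to 7 with arrays left out (3 without AQUOLIVE® pool 2, AQUOLIVE® pool 3 or control pool 3). Over all probes 2336 passed it, against 692 with normexp, 1472 in the deposited values, 1124 with detection on all 6 arrays, and 1054 to 2303 with arrays left out. Of the probes past it 57.7% were higher with AQUOLIVE®, against 66.2% with 75th percentile scaling, 82.4% with normexp, 73.1% in the deposited values and 45.6% without AQUOLIVE® pool 2. Members without overlap, 25, were 15 with normexp, 9 in the deposited values, 11 with detection on all 6 arrays, and 22 to 34 with arrays left out, with fewer pools to separate. The members' median of -0.18 was -0.045 with normexp and -0.24 to -0.14 with arrays left out.

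Of 258 values of the 18 named members under alternatives, 243 kept direction and side of the threshold, and 13 members never turned direction. Part of this agreement was set beforehand. The pool-number block leaves every log2 FC as it was, and no kept member had an outlier spot to put back. The sign turned for id3 (-0.108 with 75th percentile scaling, -0.055 in the deposited values, -0.08 to 0.157 in leave-one-out), cebpd (-0.009 with 75th percentile scaling), cebpb (0.201 with quantile normalization, 0.094 with normexp, -0.594 to 0.203 in leave-one-out), klf2a (-0.118 to 0.034 in leave-one-out) and gfi1b (-0.059 to 0.623 in leave-one-out, the lowest without control pool 3), all with main values no larger than 0.31 in size. The causes were not tested. Of all 79 members 49 kept their sign in every alternative, 31 lower and 18 higher. The slide could not be fitted as a block, since each array has its own. Signal over background limits dim members, for which neither the fit nor the floor settles the size of a difference.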
